A study of Mus musculus with 11 samples.

Results

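The Dlk1-Meg3 domain is an imprinted gene cluster on mouse chromosome 12. It was followed through its 6 best known genes, Dlk1, Meg3, Rtl1, Rian, Mirg and Dio3, of 49554 annotated genes in all. Each gene was taken as its body plus 5 kb on both sides, together with the intervals between these windows, in GRCm38/mm10 coordinates. The windows of Meg3, Rtl1 and Rian overlap one another, which leaves 3 intervals, from Dlk1 to Meg3, from Rian to Mirg and from Mirg to Dio3. The whole stretch, chr12:109447485-110286097, spans 838.6 kb and holds 103 annotated genes, of which 61 are miRNA genes and 19 snoRNA genes. The domain was chosen by measured values, the difference in methylation level between the H3K9me3 and H3K4me1 libraries upstream of Meg3, so that difference is described here without a test.

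The measurements come from CUT&Tag-BS, in which an antibody guides a transposase to a histone mark and bisulfite sequencing then reads CpG methylation on the released fragments. All cells were E14, an embryonic stem cell line of 129/Ola mouse background cultured in serum plus leukemia inhibitory factor, and the labels name no other allele or treatment. H3K4me1 and H3K9me3 were profiled with bisulfite from 250000 cells as run 1 (35 bp reads) and run 2 (75 bp reads), and H3K27me3 from 4000, 20000, 100000 and 250000 cells. For each mark 1 control library was made from 250000 cells without bisulfite, and it gives peaks but no methylation. E14 is 1 cell line, and reads were not assigned to a parental copy. Each H3K27me3 cell number has 1 bisulfite library, and the runs of H3K4me1 or of H3K9me3 were treated as 1 library. No value below thus counts as biologically replicated or separates the maternal from the paternal chromosome. RNA was not measured, so expression of the 6 genes and markers of the cell type could not be checked.

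A methylation level is the number of methylated calls over all calls, in percent, where a call is a CpG cytosine read once. Intervals in brackets are 95% Wilson intervals. They cover counting error only, because neighbouring calls can share a fragment and PCR copies a fragment. Run 1 and run 2 held 4915289 and 9684591 calls for H3K4me1 and 1997957 and 6301370 calls for H3K9me3. Depth was 377316, 5016004, 24455405 and 37159887 calls for H3K27me3 in order of cell number. In the domain, CpGs called once in each run had the same state in both H3K4me1 runs at 248 of 259 and in both H3K9me3 runs at 340 of 354. Between the H3K27me3 libraries from 100000 and 250000 cells the same count was 392 of 465. The runs of a mark were treated as repeat sequencing of 1 library, and the H3K27me3 library from 4000 cells as too shallow for most windows.

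Imprinted genes are expressed from 1 parental copy. In this domain Dlk1, Rtl1 and Dio3 code for proteins and are expressed mainly from the paternal copy, whereas Meg3, Rian and Mirg are long noncoding RNAs of the maternal copy that host snoRNAs and miRNAs. Control rests on an intergenic region between Dlk1 and Meg3 that is methylated on the paternal copy and unmethylated on the maternal copy, and on a second region at the Meg3 promoter that gains paternal methylation later. H3K4me1 marks enhancers and promoter flanks, H3K9me3 marks heterochromatin and methylated imprint control regions, and H3K27me3 is the Polycomb mark of silent CpG-rich promoters.

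The 4 promoters on which the results turn are shown first, from RefSeq (GRCm38.p6), each from 250 bases before to 50 bases after the annotated start, 5′ to 3′ on the transcribed strand, with every CpG in capitals. Gm34081 is an unnamed lncRNA gene whose promoter, 1 of several annotated, lies between Dlk1 and Meg3 where H3K4me1 and H3K9me3 peaks overlap. The Meg3 promoter lies in the same H3K9me3 peak, and the Dlk1 and Dio3 promoters lie in H3K27me3 peaks.
Gm34081 promoter, chr12:109526220-109526519, minus strand: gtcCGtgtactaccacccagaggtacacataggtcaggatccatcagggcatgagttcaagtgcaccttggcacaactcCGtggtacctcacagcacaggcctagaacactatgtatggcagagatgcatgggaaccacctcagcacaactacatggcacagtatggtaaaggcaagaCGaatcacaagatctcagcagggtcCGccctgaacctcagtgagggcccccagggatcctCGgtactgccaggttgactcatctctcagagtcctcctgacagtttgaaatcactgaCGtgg
Meg3 promoter, chr12:109540746-109541045, plus strand: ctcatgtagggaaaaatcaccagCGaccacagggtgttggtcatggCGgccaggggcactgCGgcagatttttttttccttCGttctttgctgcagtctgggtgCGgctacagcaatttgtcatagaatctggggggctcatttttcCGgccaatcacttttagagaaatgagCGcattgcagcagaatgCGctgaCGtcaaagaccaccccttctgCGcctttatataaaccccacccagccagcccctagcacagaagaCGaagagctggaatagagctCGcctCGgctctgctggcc
Dlk1 promoter, chr12:109452573-109452872, plus strand: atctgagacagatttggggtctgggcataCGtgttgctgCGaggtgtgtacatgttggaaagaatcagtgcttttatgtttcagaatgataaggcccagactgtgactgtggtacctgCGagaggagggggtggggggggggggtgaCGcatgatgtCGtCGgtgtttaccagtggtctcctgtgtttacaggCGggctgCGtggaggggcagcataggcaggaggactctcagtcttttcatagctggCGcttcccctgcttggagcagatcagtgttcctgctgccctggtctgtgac
Dio3 promoter, chr12:110278980-110279279, plus strand: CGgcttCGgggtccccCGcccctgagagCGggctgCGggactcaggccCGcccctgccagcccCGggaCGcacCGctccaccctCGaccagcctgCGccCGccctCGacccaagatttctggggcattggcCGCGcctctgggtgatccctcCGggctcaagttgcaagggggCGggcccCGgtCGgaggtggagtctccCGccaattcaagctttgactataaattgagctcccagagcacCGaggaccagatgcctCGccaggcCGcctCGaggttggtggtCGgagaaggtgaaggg
They hold 6, 13, 9 and 25 CpGs. The motif TGCCGC, which the imprint protein Zfp57 recognises, was searched on both strands. It occurs once in the Meg3 promoter and not in the other printed windows, and 11.7% of 32619 RefSeq promoters of this length hold it. The match describes the letters and is not a binding measurement.

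In these 4 windows the libraries separated as follows. At the Gm34081 promoter 0 of 14 and 2 of 33 H3K4me1 calls were methylated, against 18 of 18 and 40 of 41 H3K9me3 calls (run 1 and run 2). At the Meg3 promoter the methylated H3K4me1 calls were 0 of 4 and 0 of 11 (a count of 0 of 11 allows a level of up to 27.3%), against 15 of 16 and 8 of 8 H3K9me3 calls. Both promoters were thus read as nearly unmethylated on H3K4me1 fragments and nearly fully methylated on H3K9me3 fragments. The Dlk1 and Dio3 promoters had no H3K9me3 call in either run. At Dlk1, H3K27me3 calls were methylated in 2 of 3, 31 of 50, 147 of 239 and 273 of 382 cases from 4000 to 250000 cells, and at Dio3 in 6 of 20, 0 of 172, 1 of 984 and 11 of 1943. The partly methylated Dlk1 promoter and the unmethylated Dio3 promoter carried the same Polycomb mark.

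H3K9me3 and H3K27me3 peaks occupied different places in the domain, whereas H3K4me1 peaks overlapped peaks of both. H3K9me3 peaks touched 1 of the 6 gene windows, that of Meg3, in run 1, run 2 and the control, where 9.86%, 14% and 9.42% of all gene windows had a peak. H3K4me1 peaks touched 3 windows in run 1 and in the control (Dlk1, Meg3 and Dio3) and 2 in run 2 (Dlk1 and Dio3), where 30.2%, 30% and 28.9% of all windows had one. H3K27me3 peaks touched the Dlk1 window with 4000 cells (1.32% of all windows), and Dlk1, Rian and Dio3 with 20000, 100000 and 250000 cells (16.4%, 24% and 25.5%). The H3K27me3 control added Rtl1, for 4 windows against 29% of all. Mirg, a host of miRNAs, had no peak in any of the 11 lists. With 6 genes, counts of 2 or 3 cannot be set apart from shares of 24% to 30.2%, so the positions of the peaks are described instead. H3K27me3 peaks of the library from 250000 cells covered 9.30% of the domain and 3.11% of the genome, H3K9me3 run 2 peaks 4.76% and 1.94%, and H3K4me1 run 2 peaks 2.66% and 2.18%.

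The Dlk1 to Meg3 interval showed the widest gap between the marks. H3K4me1 calls were methylated at 15.0% (12.7 to 17.7%, 785 calls) in run 1 and 15.0% (13.3 to 16.9%, 1515 calls) in run 2. H3K9me3 calls were methylated at 93.4% (91.4 to 94.9%, 772 calls) and 94.1% (93.0 to 95.1%, 1978 calls). The difference between the means of the runs was 78.7 points, against 78.4 in run 1 and 79.1 in run 2. At the 229 CpGs that run 2 of both marks called, the difference was 81.8 points. H3K27me3 calls were few, at 0.36 times the mean calls per CpG of the library from 250000 cells, and their level was 90.4% (87.7 to 92.6%, 554 calls).

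The widest gap and most of the calls lay in 1 region that begins in that interval. The unified H3K9me3 peak chr12:109522872-109541557 is 18.7 kb wide, starts in Gm34081 and reaches past the Meg3 start, and 3 unified H3K4me1 peaks lie inside it. H3K9me3 calls were 24.3 and 19.4 times as dense per CpG there as over the genome, H3K4me1 calls 10.6 and 10.2 times, and H3K27me3 calls from 250000 cells 0.15 times. H3K4me1 levels in it were 12.7% and 13.2%, and H3K9me3 levels 93.1% and 93.5%. From the end of the Dlk1 window to the start of this peak, H3K4me1 levels were 61.2% (47.2 to 73.6%, 49 calls) and 58.1% (47.9 to 67.6%, 93 calls), and H3K9me3 levels were 94.9% and 94.6%. Before the peak the H3K4me1 levels were thus higher and their calls thin, with H3K9me3 levels still above them.

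**Figure D1:**
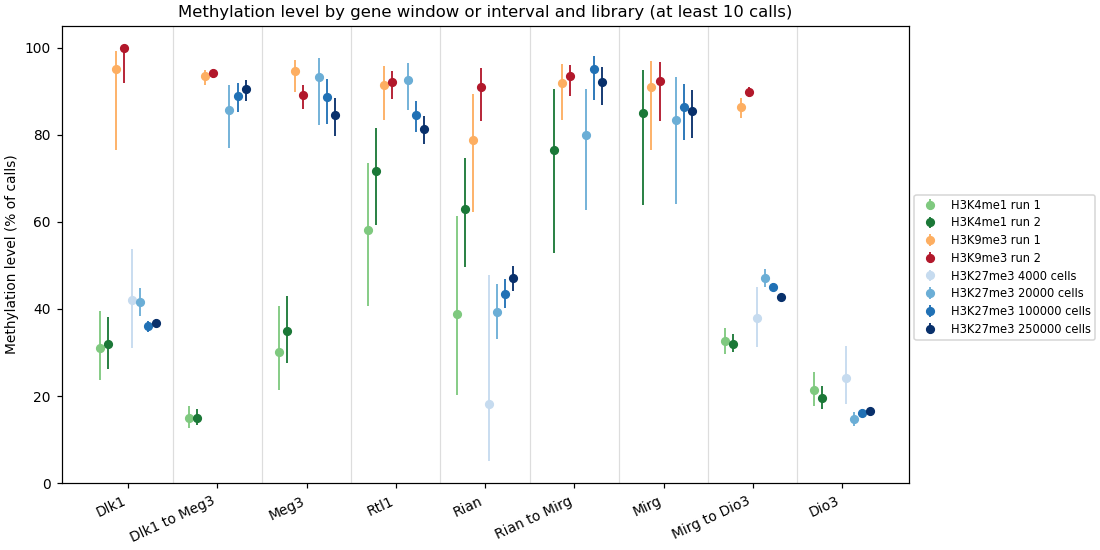
Methylation level in percent (vertical axis) of each gene window or interval (horizontal axis, in genomic order) for the 8 bisulfite libraries, shown where a library had at least 10 calls. Points are levels and bars are 95% Wilson intervals. In the Dlk1 to Meg3 interval the H3K4me1 runs lie at 15.0% and the H3K9me3 and H3K27me3 libraries between 85.6% and 94.1%.

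Single CpGs showed the same split. In the shared peak, 72 of 326 CpGs had at least 5 calls in run 2 of both marks, and the H3K9me3 level was the higher at 72 of 72, by a median of 87.6 points. The H3K4me1 level was 0% at 37 and at most 20% at 54 of them. The H3K9me3 level was 100% at 40 and at least 80% at 69, with a lowest value of 60%. Both conditions, H3K4me1 at most 20% and H3K9me3 at least 80%, were met at 51. These CpGs lie on shared fragments and are not independent of each other.

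**Figure D2:**
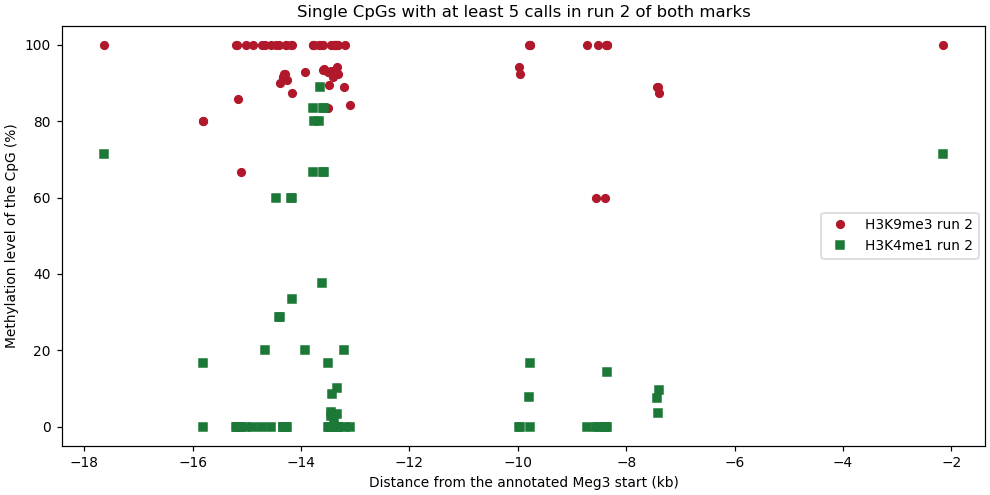
Methylation level in percent of 72 single CpGs in the shared peak (vertical axis) by distance from the Meg3 start in kb (horizontal axis), from run 2 of H3K9me3 (circles) and H3K4me1 (squares). Circles lie at 60% or above, and most squares at 20% or below except in a short stretch near -14 kb.

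H3K4me1 calls were not uniformly unmethylated. In chr12:109526541-109527416, a stretch of 876 bp, 12 of 24 such CpGs had an H3K4me1 level of at least 50%, against 2 of 48 elsewhere in the peak. The stretch was picked after its values were seen, as a cluster of CpGs at this level. Its higher share thus follows from the choice and is only a description. It was not methylated throughout, as such CpGs from chr12:109526655 to chr12:109526736 were at 0% in both H3K4me1 runs. The stretch had H3K4me1 levels of 37.6% (29.1 to 47.0%, 109 calls) and 37.1% (30.3 to 44.4%, 178 calls). The rest of the same H3K4me1 peak had 9.38% (96 calls) and 12.0% (191 calls) before it and 2.19% (274 calls) and 2.70% (519 calls) after it. H3K9me3 levels across these pieces stayed between 90.4% and 96.2%. The low-methylation piece after the stretch also held the densest H3K4me1 calls of the peak pieces, at 44.1 and 42.4 times the genome mean per CpG.

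Call density of the marks also separated along the peak. Between the first and the second H3K4me1 peak, chr12:109528266-109529573, H3K9me3 calls were 55.7 and 33.3 times the genome mean (219 and 413 calls, 91.3% and 93.7% methylated), while H3K4me1 calls were 2.79 and 2.36 times (27 and 45 calls). The few H3K4me1 calls there were methylated at 0% in run 1, which allows up to 11.1%, and at 2.22% in run 2. In the second H3K4me1 peak, chr12:109529574-109534160, H3K4me1 levels were 9.72% and 11.3% and H3K9me3 levels 90.2% and 93.4%. Between that peak and the Meg3 start the H3K4me1 levels were higher, at 35.4% (24.9 to 47.5%, 65 calls) and 41.0% (31.9 to 50.8%, 100 calls). The methylated H3K4me1 calls there lay mainly in the bins from -7 to -2 kb, and the last bin before Meg3 was at 8.33% (12 calls) and 5% (20 calls).

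**Figure D3:**
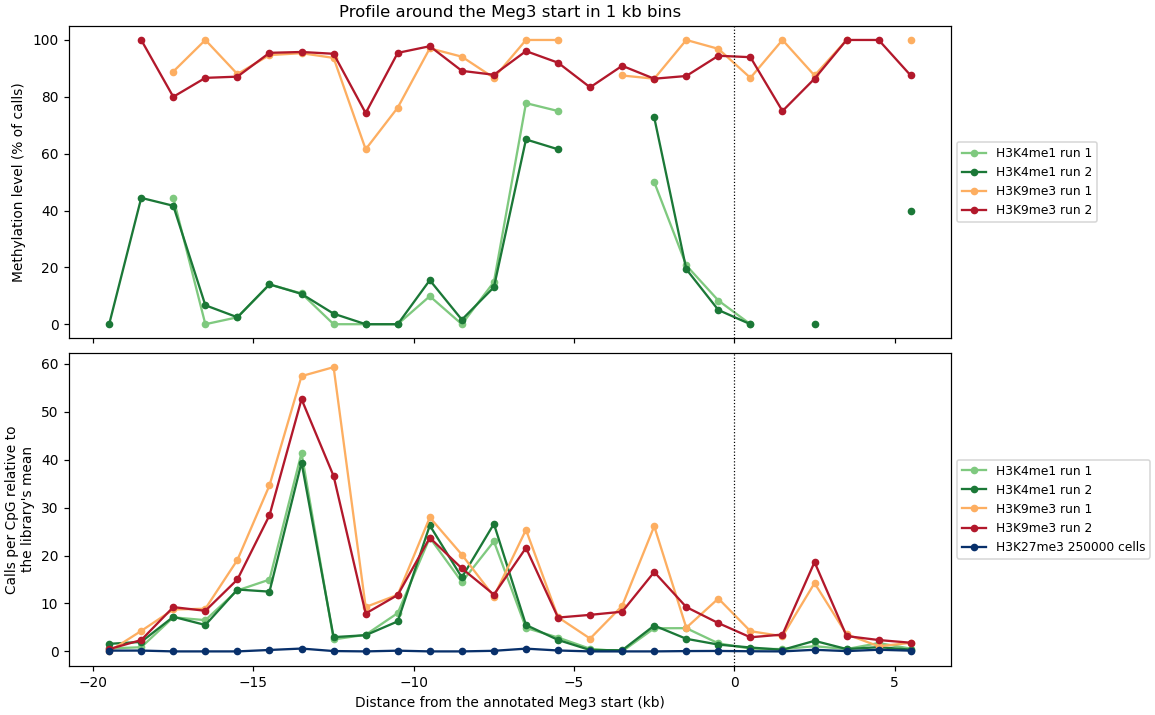
Methylation level in percent (top, bins with at least 5 calls) and calls per CpG relative to the mean of each library (bottom) in 1 kb bins, by distance from the Meg3 start in kb. H3K9me3 levels are high in nearly all bins, H3K4me1 levels are low from -17 to -7 kb and again at the Meg3 start, and H3K27me3 call density (bottom only) stays near 0.

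Meg3 makes a maternally expressed noncoding RNA and is the gene nearest to this peak. In its window H3K4me1 levels were 30.1% (21.3 to 40.7%, 83 calls) and 35.0% (27.6 to 43.1%, 143 calls), and H3K9me3 levels 94.5% (89.9 to 97.1%, 164 calls) and 89.0% (85.9 to 91.5%, 491 calls). The difference of the run means was 59.2 points, and 54.2 points at 80 CpGs shared in run 2. In the first 4 kb of Meg3, the methylated H3K4me1 calls were 0 of 13 and 0 of 34 (the latter allows a level of up to 8.82%), against H3K9me3 levels of 91.1% (45 calls) and 87.5% (144 calls). In the rest of the gene H3K4me1 levels were 64.7% (17 calls) and 72.7% (33 calls), and H3K9me3 levels 100% (41 calls) and 89.6% (125 calls). The unmethylated H3K4me1 calls of the gene body thus lay mostly at its start. H3K27me3 levels in the window were 93.3%, 88.6% and 84.6% with 20000, 100000 and 250000 cells (45, 149 and 266 calls), and no list of that mark had a peak there.

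Rtl1 encodes a retrotransposon-derived protein needed in the placenta, and the opposite, maternal strand carries miRNAs that target its transcript. The miRNAs with the densest H3K9me3 calls in run 2, all from the Rtl1 window, and those lying in H3K27me3 peaks are shown as RefSeq mature sequences, with bases 2 to 8, the seed, in capitals.
miR-433-3p: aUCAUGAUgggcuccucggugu
miR-127-3p: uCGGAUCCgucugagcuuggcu
miR-434-3p: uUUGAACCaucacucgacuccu
miR-341-3p: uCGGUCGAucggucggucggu
miR-1188-5p: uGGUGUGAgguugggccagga
miR-1247-5p: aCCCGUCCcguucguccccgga
None of these 6 shares its seed with another mature miRNA of the domain. The 61 miRNA genes had 114 mature miRNAs in RefSeq with 104 different seeds, of which 9 were shared, such as AUGUAAC of miR-379-3p and miR-411-3p and UGGAUAU of miR-376b-5p and miR-376c-5p.

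In the Rtl1 window H3K9me3 levels were 91.5% (82 calls) and 92% (288 calls) and H3K4me1 levels 58.1% (40.8 to 73.6%, 31 calls) and 71.7% (59.2 to 81.5%, 60 calls). At the 8 CpGs that run 2 of both marks called, the difference was 12.5 points, from 8 and 15 calls. From Mir431 to Mir136, chr12:109590447-109595388, H3K9me3 calls were 3.17 and 4.04 times as dense as over the genome, with levels of 97.7% (43 calls) and 93.6% (173 calls), although no H3K9me3 list had a peak there. Within 1 kb of Mir127 run 2 had 124 H3K9me3 calls at 93.5%, within 1 kb of Mir434 77 calls at 93.5% and within 1 kb of Mir433 63 calls at 96.8%. In run 1 these numbers were 28, 23 and 9, so Mir433 did not stand out there. H3K4me1 calls over the same stretch numbered 5 and 8, with all methylated. H3K27me3 levels of the Rtl1 window were 92.6%, 84.5% and 81.3% with 20000, 100000 and 250000 cells.

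Rian, a maternally expressed noncoding RNA that hosts snoRNAs, carried an H3K27me3 peak, chr12:109609312-109615727. It overlaps Mir341 and Mir1188 and appeared with 20000, 100000 and 250000 cells and in the control. Its H3K27me3 levels were 11.1% (9 calls), 31.2% (25.1 to 38.1%, 192 calls), 30.5% (27 to 34.1%, 637 calls) and 39.5% (36.3 to 42.8%, 865 calls) from the fewest to the most cells. The unmethylated calls were concentrated in 1 kb, chr12:109612312-109613311, where levels were 0% (8 calls), 7.94% (126 calls), 12.2% (436 calls) and 14.8% (492 calls), against 75.0% to 100% in the 3 bins before it with 20000 or more cells. Within 1 kb of Mir341 the level with 250000 cells was 88.0% (83 calls), and within 1 kb of Mir1188, nearer to that bin, it was 39.8% (201 calls). The whole Rian window had levels of 39.3%, 43.5% and 47.0% with 20000, 100000 and 250000 cells.

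Few H3K4me1 or H3K9me3 calls fell in the Rian window. H3K4me1 levels were 38.9% (20.3 to 61.4%, 18 calls) and 63.0% (49.6 to 74.6%, 54 calls), with overlapping intervals between the runs. H3K9me3 levels were 78.8% (62.2 to 89.3%, 33 calls) and 91.0% (83.3 to 95.4%, 89 calls), with intervals above that of H3K4me1 in the same run. Over all calls of the window the difference of the run means was 34.0 points, mostly from CpGs that the marks did not share. The 6 CpGs called by run 2 of both marks were methylated in all calls of both. No difference between these marks was detectable at those CpGs at this depth.

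Mirg hosts miRNAs, and its window and the interval before it, which hold 14 and 26 of the 61 miRNA genes, were methylated in each library with calls. In the Mirg window H3K4me1 levels were 85.7% (7 calls) and 85.0% (20 calls), H3K9me3 levels 90.9% (33 calls) and 92.3% (65 calls), and H3K27me3 levels 83.3%, 86.4% and 85.5% with 20000, 100000 and 250000 cells. In the Rian to Mirg interval H3K9me3 levels were 91.9% (74 calls) and 93.4% (196 calls) and H3K27me3 levels with 100000 and 250000 cells 95.1% and 92.1%. H3K4me1 levels there were 100% (64.6 to 100%, 7 calls) and 76.5% (52.7 to 90.4%, 17 calls), at 0.045 and 0.056 times the genome mean of calls per CpG. At the 5 CpGs of the interval that run 2 of both marks called, the levels were 60% for H3K4me1 (5 calls) and 100% for H3K9me3 (6 calls). These depths are too low to tell whether the marks differed in methylation there.

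Dlk1 encodes a transmembrane protein related to Notch ligands and is expressed from the paternal copy. An H3K27me3 peak, chr12:109444508-109462260, covered its promoter and most of its body and was found in part with 4000 cells. In the Dlk1 window H3K27me3 levels were 42.0% (69 calls), 41.6% (38.4 to 44.9%, 886 calls), 36.0% (34.8 to 37.3%, 5679 calls) and 36.7% (35.8 to 37.7%, 8983 calls) from the fewest to the most cells. H3K4me1 levels were 31.0% (23.7 to 39.4%, 129 calls) and 31.9% (26.2 to 38.2%, 229 calls). H3K9me3 calls were rare, 20 and 44 in the runs, and were methylated at 95% and 100%. H3K9me3 was 66.1 points above H3K4me1 over all calls of the window. Run 2 of both marks shared 7 called CpGs, where the difference was 28.6 points on 7 calls each.

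The Dlk1 surroundings alternated between methylated and less methylated stretches on H3K27me3 fragments. The start taken here was that of the printed Dlk1 promoter, and the gene annotation begins slightly earlier, at chr12:109452485. In 2 kb bins from that promoter start, with 250000 cells, the first 2 kb had a level of 18.5% (5308 calls). The next 2 kb had 88.6% (404 calls). Before the start the level was 74.9% (606 calls) in the nearest bin and 28.7% (847 calls) in the bin before that. A further dip to 60.5% (1244 calls) lay 6 to 8 kb after that start. The libraries from 20000 and 100000 cells had 19.5% and 17.8% in the first 2 kb and 93.9% and 89.4% in the next, the same order of bins.

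Dio3 encodes the deiodinase that inactivates thyroid hormones, and Dio3os is the noncoding gene beside it. An H3K27me3 peak, chr12:110249677-110285963, reached from upstream of both over the whole of Dio3, and 3 H3K4me1 peaks lay inside it. In the Dio3 window H3K27me3 levels were 24.2% (18.3 to 31.4%, 161 calls), 14.6% (13.2 to 16.3%, 1973 calls), 16.2% (15.6 to 16.9%, 10914 calls) and 16.5% (16.0 to 17.1%, 18676 calls) from the fewest to the most cells. H3K4me1 levels were 21.4% (17.8 to 25.5%, 430 calls) and 19.6% (17.1 to 22.4%, 852 calls). The marks thus lay within a few points of each other, with the lowest level in the library from 20000 cells. H3K9me3 had 2 and 4 calls in the window, too few to give a level.

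The unmethylated core lay just before Dio3. With 250000 cells the 2 kb before the start had a level of 2.44% (8030 calls), whereas the 2 kb before that had 79.8% (1351 calls). Bins further upstream, still under the H3K27me3 peak, had levels of 68.1% to 92.2% as far as -26 kb. Over the gene and just after it the levels were 17.0% (5654 calls) and 16.8% (3050 calls), and then 41.5% (260 calls). The H3K4me1 run 2 levels in the bins at -2, 0, 2 and 4 kb were 2.36%, 19.3%, 19.7% and 36.8%, in the same order. The Dio3os promoter, with 53 CpGs in 300 bases, had 6 of 1593 H3K27me3 calls methylated with 250000 cells and 0 of 35 H3K4me1 calls in run 2. Mir1247, which lies there, had a level of 2.91% (7668 calls) within 1 kb with 250000 cells.

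**Figure D4:**
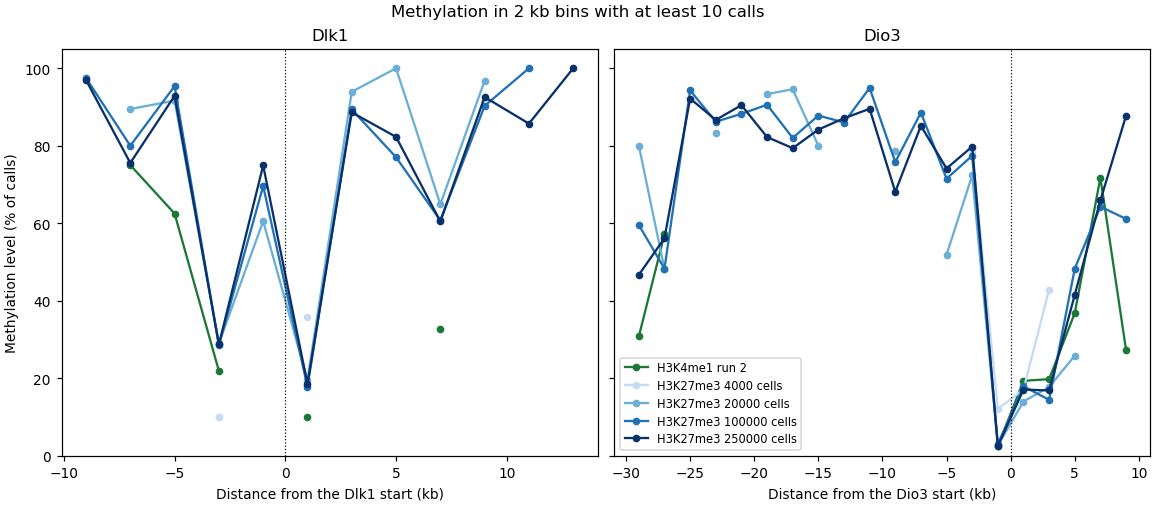
Methylation level in percent (vertical axis) in 2 kb bins with at least 10 calls, by distance from the start of Dlk1 (left) and Dio3 (right) in kb. The Dlk1 start is that of its printed promoter. Lines are the H3K27me3 libraries (blue, darker with more cells) and H3K4me1 run 2 (green). Dlk1 has dips to 18.5% at its start and 28.7% upstream with 250000 cells, and Dio3 has 1 unmethylated core of 2.44% before its start.

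In the Mirg to Dio3 interval no H3K9me3 peak overlapped an H3K4me1 peak, unlike upstream of Meg3. H3K4me1 levels of the interval were 32.6% and 32.1%, H3K9me3 levels 86.3% and 89.8%, and H3K27me3 levels 47.1%, 45.1% and 42.7% with 20000, 100000 and 250000 cells. Over all calls H3K9me3 was 55.7 points above H3K4me1. At the 144 CpGs that run 2 of both marks called, it was 33.2 points above, at 63.6% (225 calls) against 30.4% (464 calls). At the 345 CpGs called by H3K4me1 run 2 and H3K27me3 from 250000 cells, the order of these marks reversed. The levels there were 25.7% for H3K4me1 (1270 calls) and 18.998% for H3K27me3 (10064 calls). The H3K4me1 peak chr12:109946051-109952704 had H3K4me1 levels of 24.7% (417 calls) and 23.0% (966 calls) and H3K9me3 levels of 9.52% (21 calls) and 9.52% (42 calls). The H3K9me3 values were the lower ones there, with Wilson intervals that overlap those of H3K4me1. The H3K9me3 peak at Gm9661, chr12:109817524-109828136, had H3K9me3 levels of 93.5% (107 calls) and 92.2% (373 calls) and no H3K4me1 call. Of the H3K27me3 peaks, chr12:110182895-110197436 at Gm34785 was at 24.1% (11043 calls) and chr12:110228908-110239861 at Gm40576 at 87.6% (459 calls) with 250000 cells. By calls, H3K27me3 peaks of the domain thus ranged from mostly unmethylated at Gm34785 to highly methylated at Gm40576. The peak over Dio3 held both, with low levels near the gene and high levels further upstream.

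The gap upstream of Meg3 was set against all 2 kb tiles of chromosomes 1 to 19 and X that had at least 10 calls in each run of both marks. Of 12 such tiles in the domain, 9 had an H3K9me3 level at least 20 points above H3K4me1, against 29% of 4022 tiles in all. At 40 points the counts were 8 in the domain and 8.28% of all tiles, and at 70 points 6 and 1.07%. The 6 tiles ranked 3, 6, 8, 11, 12 and 16 of 4022, with differences of 79.3 to 91.4 points. The 9 tiles lie in chr12:109522001-109542000 and overlap Gm34081, and the last also Meg3. The other 3 domain tiles, at chr12:109860001-109862000, chr12:109936001-109938000 and chr12:109948001-109950000, differed by -15.9, 7.98 and -0.87 points. The median was 66.7 points over the domain tiles and 7.87 over all tiles. This contrast chose the domain, and the tiles share libraries and fragments, so the counts are a description.

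H3K27me3 had few calls upstream of Meg3, and its tiles lay mostly elsewhere. In 18 domain tiles with enough calls, its level was at least 20 points above H3K4me1 in 3, against 14.6% of 44155 tiles, and the median difference was 0.48 points in the domain and 1.63 over all tiles. The highest, 80.2 points, was the tile chr12:109526001-109528000 upstream of Meg3, from 48 H3K27me3 calls. H3K9me3 was at least 20 points above H3K27me3 in 0 of 11 domain tiles, against 11.6% of 6702 tiles, and the median differences were 2.14 and 0 points. The domain tiles ranged from -17.8 to 6.71 points. They needed 10 calls in both H3K9me3 runs, which left out places such as the Dio3 window. At 875 CpGs of the domain called by H3K9me3 run 2 and H3K27me3 from 250000 cells, levels were 90.6% and 70.2%. In the Rian window 34 such CpGs had 90.2% (41 calls) and 20.5% (215 calls). In the Rtl1 and Mirg windows and the Rian to Mirg interval H3K27me3 was slightly higher at such CpGs.

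Among whole gene windows, that of Gm34081, which covers most of the shared peak, had 77.8 points and ranked 26. Of 7772 windows with at least 20 calls in each run, 78% had an H3K9me3 level at least 20 points above H3K4me1, with a median of 34.6 points, and the 3 members with enough calls were past this threshold. They were Dlk1 at 66.1, Meg3 at 59.2 and Rtl1 at 26.9 points, of which Rtl1 lay below the median. Meg3 ranked 659 of 7772. Of 20 listed imprinted genes elsewhere in the genome, 14 had enough calls and 13 were past 20 points, with a median of 54.5 points. Peg3 (79.98), Igf2 (77.3), Rasgrf1 (76.5), Gnas (70.04) and Igf2r (62.7 points) were above Meg3. H19, with H3K4me1 at 84.6% and 83.6%, had 9.29 points. The difference at Meg3 thus lay within the range of other imprinted loci.

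The neighbours beyond the domain had smaller differences than Meg3, at 59.2 points, but not than every member. On the Dlk1 side Wdr25 and Begain had 31.7 and 30.6 points, and on the Dio3 side Ppp2r5c and Dync1h1 had 5.11 and 41.9 points. The member Rtl1, at 26.9 points, lay below Wdr25, Begain and Dync1h1 and above Ppp2r5c. Among 5794 gene windows with enough calls, those most like Meg3 over 7 levels (both runs of H3K4me1 and H3K9me3 and H3K27me3 from 20000 or more cells) were Gm32914, Ccdc83, Bank1, Aldh1l1 and Cwc22, with mean absolute differences of 2.92, 3.38, 3.82, 3.99 and 4.35 points. Gm32914, the nearest, had H3K4me1 levels of 32% and 42.2% and H3K9me3 levels of 91.3% and 85.9%. These windows were picked for their closeness to Meg3 in these levels, so the likeness describes the levels alone.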

How the data were processed

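CpG methylation was read from 8 bisulfite libraries, and peaks from these and 3 controls. The authors deposited 1 table of whole-number counts, methylated calls and all calls per CpG and library without normalization, and peak positions without scores. Per the submitters' processing notes, which give no role or order, cutadapt 1.12, Bismark 0.23.0, Bowtie2 2.3.0, HOMER 4.10.3, bedtools 2.29.2 and build mm10 were used. Treatment of duplicate reads is not given in the sources used here. All 407620 CG pairs of 32619 RefSeq promoters (GRCm38.p6) were positions of the table, and 0 count columns were left unused.

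Levels were computed with Python 3.11.15, numpy 2.4.6 and scipy 1.17.1. Runs of a mark were treated as 1 library because the mean chi-square between them, scaled so that separate molecules give 1, was 0.390 (H3K4me1) and 0.722 (H3K9me3), against 1.08 between H3K27me3 libraries. No p-value was computed. The tile calculation was tested on simulated data with known differences as a check of the code, and no result rests on it. Gene windows needed 20 calls in each run, 2 kb tiles 10 and single CpGs 5, and a peak counted by 1 bp of overlap. Levels are given by run, and the mean of runs where a difference is given.

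Besides the 6 genes, named genes are those over tiles past 20 points, those under peaks and 20 listed imprinted genes. The 5 windows most like Meg3 are also named, with neighbours on each side where their calls sufficed. Neighbours were the nearest 3 protein-coding genes or, where no type was given, annotated genes not named Gm or Mir. The members and lists were chosen with earlier results of these data known. Alternatives were the flank, the call minimum, the tile, the averaging, the runs and the peak overlap.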

Additional observations from a re-analysis of the deposited data

How the results depend on the processing

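Of 64 alternatives, 47 left the value within the spread between runs (for counts, within 1.5 times), 17 moved it and 0 reversed a difference. The Meg3 window, 59.2 points, became 66.9 with a flank of 2 kb and 71.1 with 10 kb. The Dlk1 to Meg3 interval, 78.7 points, became 77.7 and 79.3 with these flanks, 81.3 at CpGs called in all 4 runs, 84.0 at CpGs with at least 5 calls and 66.7 as a mean over CpGs. With at least 5 calls per tile, 16 of 20 domain tiles were past 20 points, against 9 of 12. With at least 20 calls the count was 6 of 6, and with tiles of 5 kb it was 6 of 12. Tile counts were compared without regard to the number of tiles tested. Leaving out each run in turn gave 56.5 to 62.0 points for the Meg3 window and 78.4 to 79.1 for the interval. The tiles past 20 points were 12 of 15 without H3K4me1 run 1 and 9 of 14 without H3K9me3 run 1. Without run 2 of either mark they were 9 of 12. The H3K27me3 level of the whole domain with 250000 cells, 32.4%, became 25.4% at CpGs with at least 5 calls, 74.3% as a mean over CpGs and 25.5% over the 6 windows alone, so it depends on how CpGs with many calls are weighted. Gene bodies alone had an H3K4me1 peak in 1 of 6 genes in run 2 and 1 in the control, and an H3K9me3 peak in 0 in run 1. The wider peaks of each list alone, those at or above its median width, left 1 gene in H3K4me1 run 1, 1 in run 2 and 1 in the control. Tiles moved by 1 kb were added after the data were seen and left the count within 1.5 times. For the Meg3 window the minimum of 5 calls per CpG gave no value, because H3K4me1 run 1 had no such CpG. No paired analysis was possible because the runs are repeats of 1 library per mark and the results come from no test. H3K9me3 depth limits the Dlk1 and Dio3 windows, and H3K4me1 depth the Rian and Mirg windows and the interval between them.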

Other observations

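Other genes of the domain carried marks of their own. Gm34554, an lncRNA gene between Mirg and Dio3, had an H3K9me3 peak at chr12:109930053-109936560 with H3K9me3 levels of 92% (50 calls) and 93.1% (364 calls) and H3K4me1 levels of 70% (10 calls) and 55.6% (27 calls). Further on, the H3K4me1 peak chr12:109946051-109952704 had H3K4me1 levels of 24.7% and 23.0%. Next to Gm34785 the H3K4me1 peak chr12:110187356-110189503, inside an H3K27me3 peak, had H3K4me1 levels of 15.9% (239 calls) and 15.0% (481 calls) and an H3K27me3 level of 16.0% (8890 calls) with 250000 cells. The Meg3 body held a further H3K9me3 peak in run 2, chr12:109542637-109543637, with H3K9me3 levels of 94.1% (17 calls) and 86.9% (84 calls) and H3K4me1 calls methylated in 0 of 2 and 0 of 12 cases.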
